A study of Mus musculus with 743 samples.

Results

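Glycolysis splits glucose into pyruvate in the cytosol, and pyruvate is then either reduced to lactate or carried into mitochondria and burnt in the citric acid cycle. The 42 genes described here encode the transporters and enzymes of this route in mouse Schwann cells (SC), the glia of peripheral nerves: 20 for glucose uptake, glycolysis and lactate, and 22 for pyruvate entry, pyruvate dehydrogenase, its inhibitory kinases and the citric acid cycle. They were listed by name from what the enzymes do, with earlier results of these data known. All 42 were found among the 25700 genes of the count table. The cells came from sciatic nerves of C57bl/6J mice at postnatal day (P) 1 that carried P0Cre, a Cre transgene active in the SC lineage, the Cre-activated reporter ReYFP and a beta-actin DsRed transgene. Every group shared this genotype and age. Nerves were digested with enzymes at 37°C, eYFP-positive cells were sorted 1 to a well into 2 plates of 384 wells, where 1 male and 1 female mouse were pooled separately for each plate, and each cell was sequenced with a reduced-volume Smart-seq2 protocol without molecular identifiers.

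A minimum of 1500 detected genes left 621 of 743 wells, 287 on plate 1 and 334 on plate 2. Cells were put into 3 classes by transcripts that are not among the 42. A cell with at least 50 CPM (reads of a gene per 1000000 reads of the cell) of Mki67 and Top2a together, both made by dividing cells, was called cycling (53 and 57 cells on plates 1 and 2). A cell that was not cycling and had at least 50 CPM of Ncmap, a myelin protein transcript of the myelinating path, was called promyelinating (59 and 60 cells). The remaining 175 and 217 cells are called other cells, of which 364 had no read of any of the 3 genes. The promyelinating cell with the lowest Ncmap had 50.3 CPM and the highest value outside the class was 43.3 CPM. For Mki67 and Top2a these values were 63.4 and 44.2 CPM. Reads were summed per class and plate, so that each class has 2 values, and these sums held 45073128 to 172878954 reads.

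The summed SC markers Sox10, S100b and Erbb3 took 443 to 757 CPM in the 6 sums, and markers of endothelial, immune, fibroblast-like, mural and red blood cells took at most 56.8 CPM per list, with Cdh5, Kdr, Pdgfra, Ptprc, Tyrobp, Acta2 and Rgs5 at 0 in all 6. A set of 7 further proliferation genes summed to 4773 and 4338 CPM in cycling cells and to at most 90.3 CPM elsewhere. A set of 10 further myelination genes summed to 17862 and 17881 CPM in promyelinating cells against 3786 to 5496 CPM elsewhere. Pmp22 alone took 11463 and 11856 CPM of the promyelinating sums, and 7 of the 10 were called higher than in other cells. The 5 immature SC markers Sox2, Gap43, Cdh2, Chl1 and Nes summed to 178 and 251 CPM in promyelinating cells. This overlapped with other cells (305 and 235 CPM). Of the 5, 1 was called lower and 1 higher than in other cells, and Nes was at 155 and 224 against 64.1 and 47.2 CPM. Another 2 quantities moved with the promyelinating class. The early response and heat shock genes known to be induced by enzymatic digestion (8 genes: Hspa1a, Hspa1b, Atf3, Egr1, Ier2, Junb, Fosb and Fos) summed there to 2205 and 2418 CPM against 4726 to 7160.5 CPM in the other 4 sums, and 4 of the 8 were called lower than in other cells. Promyelinating cells had a median of 3690 and 3550 detected genes, against 2775 and 2819 in other cells and 3425 and 3477 in cycling cells.

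Glia and neurons are known to divide the handling of glucose between them, and glial lactate is held to be a fuel for axons. Lactate dehydrogenase is a tetramer of subunits from Ldha and Ldhb, of which the A subunit is usually tied to lactate formation and the B subunit to lactate use. The measurements below are transcript shares within a cell's library and say nothing of enzyme activity, flux or the amount of RNA per cell, since an equal mass of amplified cDNA was taken from each well.

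Genes were ranked against each other as TPM, the share of length-normalised reads scaled to 1000000. Length was the union of a gene's exons, which can far exceed its longest transcript (Eno1 5379 and 2027 bases, Mpc1 2082 and 961 bases). The order below holds for this choice of length and was not repeated with the longest transcript. Ldhb was the most abundant of the 42, at 3238 TPM on plate 1 and 2536 TPM on plate 2 over all kept cells, and ranked 27 among all genes. It was far above the next in order, the aldolase gene Aldoa (702 and 770 TPM) and Mdh2 (761 and 670 TPM), which encodes mitochondrial malate dehydrogenase. The order of Aldoa and Mdh2 was opposite on the plates, so they were not separated. Sdhb, an iron-sulfur subunit of succinate dehydrogenase, followed at 654 and 651 TPM. Cytosolic malate dehydrogenase Mdh1 (536 and 374 TPM), Ldha (both plates 397 TPM) and the mitochondrial pyruvate carrier subunit Mpc1 (391 and 394 TPM) came after it and overlapped between plates.

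The entry of the pathway was at the low end of this order. Slc2a1, the glucose transporter GLUT1, had 8.29 and 9.07 TPM. The hexokinases, which trap glucose as glucose 6-phosphate, had 0.752 and 0.790 TPM (Hk1) and 1.97 and 1.89 TPM (Hk2). The 3 phosphofructokinase genes, which encode the committing step of glycolysis, had between 1.22 and 14.1 TPM. Aldoc, Pdk1, Pdk4 and Slc16a3, the lactate exporter MCT4, all stayed under 0.2 TPM, and reads of Aldoc came from 2 cells.

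**Figure D1:**
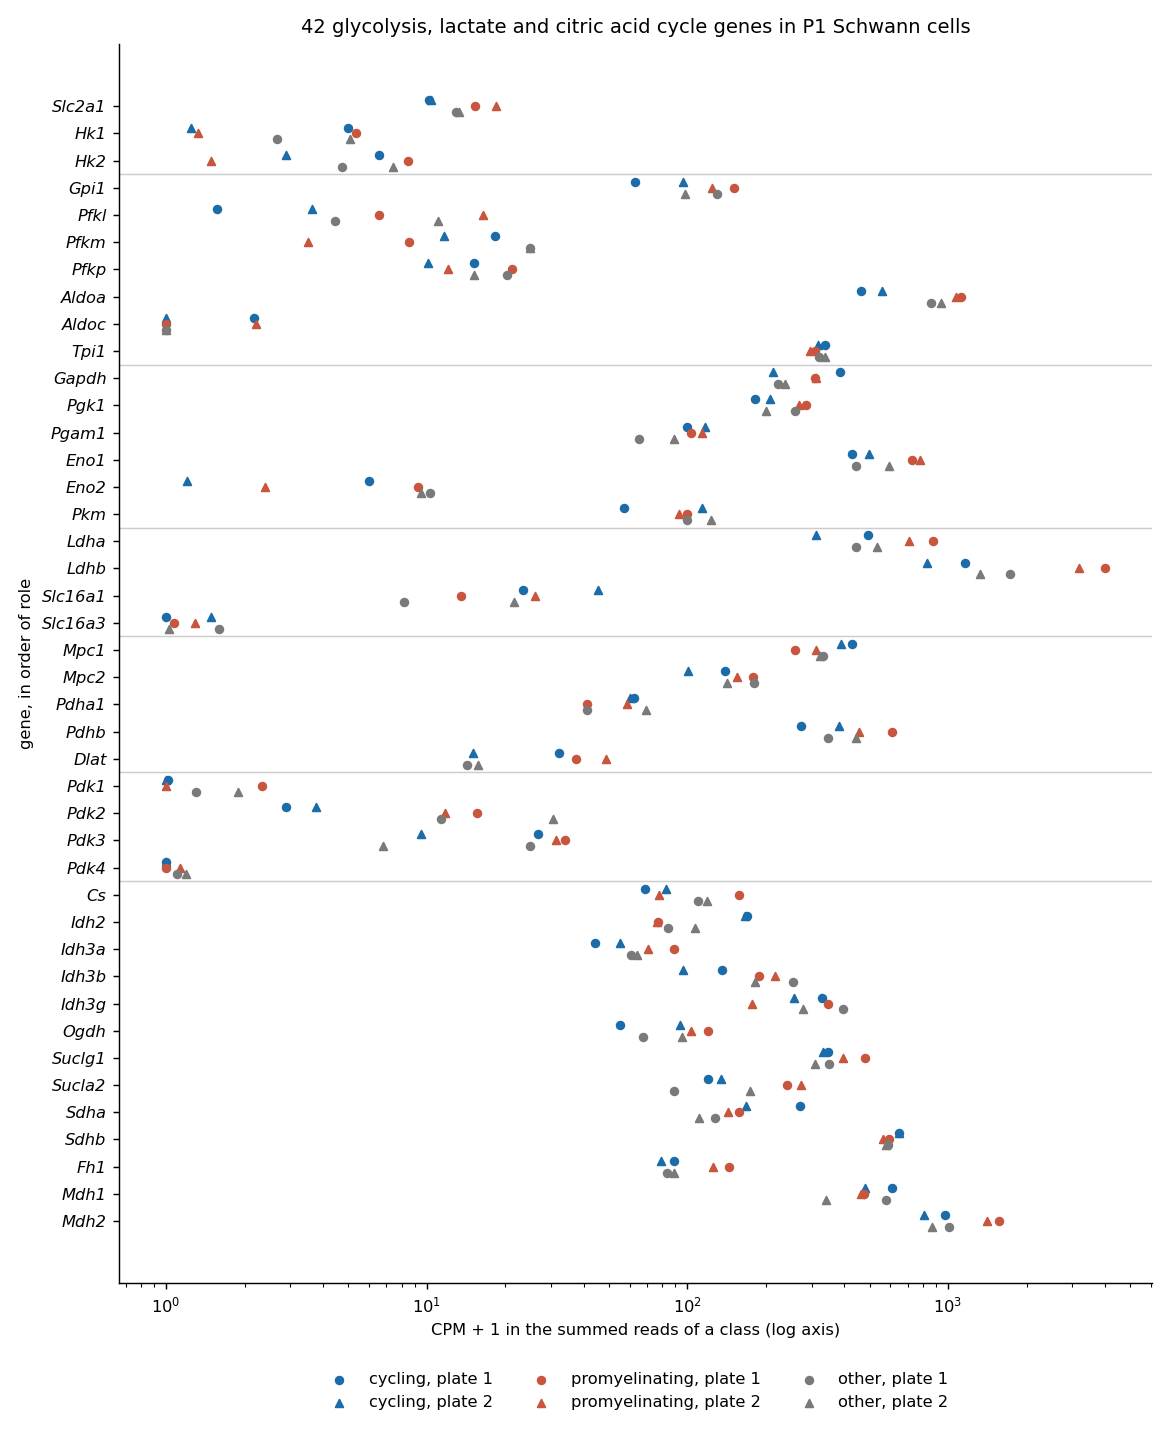
CPM plus 1 (log axis) of the 42 genes in the summed reads of each class, with circles for plate 1, triangles for plate 2 and grey lines between roles. Ldhb lies farthest to the right, with the promyelinating sums at 4016 and 3189 CPM clear of the other 4, while glucose and lactate transporters, hexokinases, phosphofructokinases and Pdk genes stay under 50 CPM.

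Promyelinating and other cells were compared to ask whether the route differs in cells that had begun to express Ncmap. A single member changed past the threshold: Ldhb was higher in promyelinating cells. Of the 13292 genes tested in all, 1.79% were called in this comparison and 0.497% were called higher. Ldhb (ENSMUSG00000030246, chromosome 6, 142490249 to 142507957, minus strand, GRCm38) stood at 4016 and 3189 CPM in the promyelinating sums of plates 1 and 2, at 1728 and 1326 CPM in other cells and at 1162 and 831 CPM in cycling cells. The 2 promyelinating values lay above all 4 others, and within each plate the order was promyelinating, other, cycling. The log2 fold change over other cells was 1.31 (SE 0.24 and edgeR adjusted p = 0.0324), a ratio of mean CPM of 2.36. On plate 1 alone the log2 ratio was 1.22 and on plate 2 alone it was 1.27. With the plate as a block the adjusted p was 0.000857.

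The sum of the dissociation genes named above was lowest where Ldhb was highest. Of the 8 genes, 4 were called lower in promyelinating than in other cells and 4 were not called. Hspa1b, at 24.8 and 46.1 CPM in promyelinating cells, was not lower there than in other cells on either plate. When only cells at or below the median of that list over all kept cells were used (44 and 46 promyelinating and 85 and 89 other cells on plates 1 and 2), the log2 fold change of Ldhb was 1.21 and its edgeR adjusted p was 0.183, the only one of 13 alternatives that ended the call (adjusted p 4.91e-06 to 0.183 over the alternatives). Fewer cells and fewer genes entered that fit, and why the call was lost was not tested. In cells of at least 2500 genes Ldhb stayed called. The dissociation sum differed along with the class, and its part in the Ldhb difference was not tested.

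The rise was seen across the cells of the class and did not rest on a few of them. All 59 and all 60 promyelinating cells had a read of Ldhb (exact 95% binomial intervals 93.9 to 100% and 94.0 to 100%, counting error only), against 90.9% and 88.9% of other cells and 90.6% and 94.7% of cycling cells. The median promyelinating cell had 3581 CPM on plate 1 and 2668 CPM on plate 2, and the lower quartiles, 2492 and 1922 CPM, lay above the median of the other cells (1207 and 959 CPM). In the promyelinating sums the 3 cells with the most Ldhb reads gave 14.1% and 14.6% of the gene's reads.

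**Figure D2:**
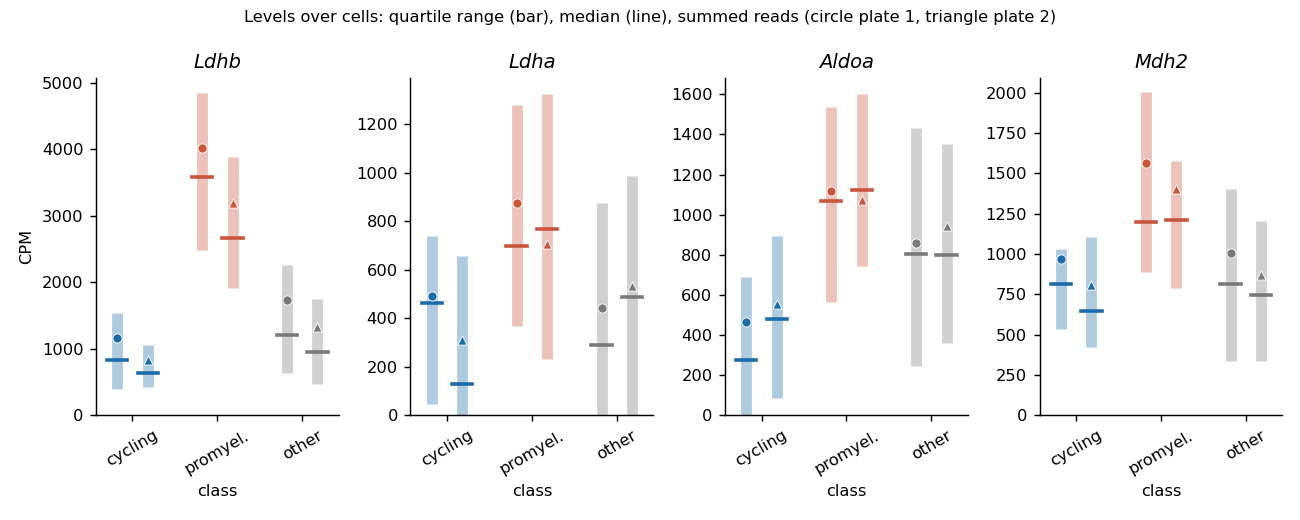
CPM of Ldhb, Ldha, Aldoa and Mdh2 in each class and plate (left plate 1, right plate 2): pale bars run from the lower to the upper quartile of cells, lines mark the median cell and symbols the summed reads. The promyelinating bars of Ldhb, with medians of 3581 and 2668 CPM, begin above the medians of the cycling and other cells. Whole bars were compared for Ldha, Aldoa and Mdh2, and these overlap between promyelinating and other cells.

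The promoters of Ldhb, Ldha and Aldoa are shown because Ldhb and Aldoa were the members called and Ldha encodes the other subunit. These are the 250 bases before the annotated start in RefSeq (GRCm38.p6), written along the strand of the gene, with capitals at ACGTG and GCGTG on either strand, the core letters that hypoxia-inducible factors can bind. For Ldha and Aldoa, which have several annotated starts, the start listed as 1 is shown. In Ldha, 2 of the matches on each strand overlap as CACGTG.
Ldhb chr6:142507958-142508207, minus strand: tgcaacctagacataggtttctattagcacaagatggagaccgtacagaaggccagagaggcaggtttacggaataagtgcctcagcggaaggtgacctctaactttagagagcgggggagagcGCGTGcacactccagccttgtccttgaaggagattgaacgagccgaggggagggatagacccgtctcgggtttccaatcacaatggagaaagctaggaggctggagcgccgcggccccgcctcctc
Ldha chr7:46845554-46845803, plus strand: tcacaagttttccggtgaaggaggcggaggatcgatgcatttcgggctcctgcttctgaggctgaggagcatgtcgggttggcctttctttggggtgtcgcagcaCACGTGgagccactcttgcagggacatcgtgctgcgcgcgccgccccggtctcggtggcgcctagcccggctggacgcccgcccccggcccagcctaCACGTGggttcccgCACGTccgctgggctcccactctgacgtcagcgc
Aldoa chr7:126799179-126799428, minus strand: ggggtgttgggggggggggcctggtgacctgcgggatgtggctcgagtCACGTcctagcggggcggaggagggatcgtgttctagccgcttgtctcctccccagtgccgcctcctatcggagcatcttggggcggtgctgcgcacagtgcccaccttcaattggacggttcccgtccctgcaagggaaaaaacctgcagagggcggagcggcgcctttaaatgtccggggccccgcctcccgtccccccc
In these stretches Ldha had 5 matches and Ldhb and Aldoa had 1 each. Of the 41 members with a promoter in the table, 34 (82.9%) held ACGTG or GCGTG in a window of 300 bases, 250 before and 50 after a start, against 46.7% of 27025 genes. CACGTG occurred in 5 members (12.2%) and in 8.09% of genes. Genes without a match among the 42 were Gpi1, Tpi1, Eno2, Dlat, Cs, Idh3b and Sucla2, and Idh3a had no entry. A gene was counted if the window of any of its annotated starts held a match. Neither the number of starts per gene nor base composition was matched, and a match is not a binding site.

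The other members of the lactate step did not pass the test. Ldha (chromosome 7, 46841475 to 46855627, plus strand) stood at 877 and 704 CPM in promyelinating cells, 443 and 533 CPM in other cells and 491 and 310 CPM in cycling cells. Its promyelinating values lay above the other 4, but the log2 fold change over other cells of 0.78 (SE 0.27) had an edgeR adjusted p of 0.293. Slc16a1, the lactate and pyruvate transporter MCT1, was at 12.5 and 25.1 CPM in promyelinating, 7.14 and 20.6 CPM in other and 22.4 and 44.2 CPM in cycling cells. Promyelinating and other cells overlapped, while both cycling values lay above both values of other cells (log2 fold change 1.39, SE 0.78 and edgeR adjusted p = 0.597). Slc16a3 was at most 0.594 CPM. Summed per length, the 4 lactate genes took 6155 ± 955 TPM in promyelinating cells, 2766 ± 351 TPM in other cells and 1897 ± 433 TPM in cycling cells (mean ± SD, n = 2 plates). Of these sums Ldhb took 5565, 2394 and 1577 TPM.

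The share of Ldhb in the length-normalised reads of both subunits was 90.6% and 90.5% in promyelinating cells, 89.2% and 84.0% in other cells and 83.3% and 85.0% in cycling cells. Promyelinating cells were highest on each plate, but on plate 1 they were close to the other cells, whose 2 plates lay further apart than that. The shares were described and not tested, and an exact permutation test of 2 values against 2 cannot go below a two-sided p of 0.333. In all 6 sums Ldhb took more of the length-normalised reads than Ldha, and the same held for the isoform genes Eno1 over Eno2 (at least 97.7%) and Aldoa over Aldoc (at least 99.8%). Mpc1 and Mpc2 encode the 2 partner subunits of the pyruvate carrier, not alternatives, and Mpc1 took 83.7 to 93.2% of their length-normalised reads. Among the phosphofructokinases Pfkm took 78.3 ± 4.99% in cycling cells and 76.1 ± 3.46% in other cells but 49.1% and 19.3% in promyelinating cells, where the family had 1737 and 1515 reads. Computed from the mean of per-cell values, the promyelinating shares were 48.2% and 39.8%.

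**Figure D3:**
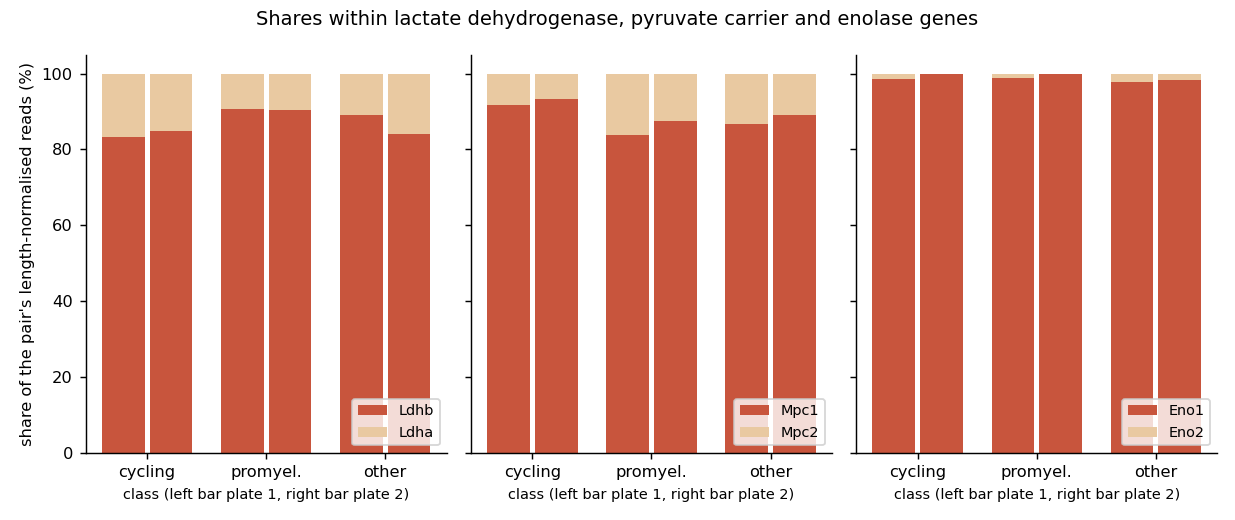
Share of each gene in the length-normalised reads of its pair (stacked bars, %, axis from 0), for the subunit genes of lactate dehydrogenase, the partner subunits of the mitochondrial pyruvate carrier and the enolase genes, by class, with plate 1 left and plate 2 right. Ldhb holds 83.3 to 90.6% of lactate dehydrogenase reads, Mpc1 83.7 to 93.2% of carrier reads and Eno1 at least 97.7% of enolase reads.

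Around Ldhb, many members leaned the same way without passing the test. In promyelinating cells 18 of the 41 members tested (43.9%) had both plates above both plates of the other cells, where this held for 16.4% of all genes tested, and 6 (14.6%) had both plates below, against 28.1% of all genes. The median log2 fold change was 0.35 over the members and -0.07 over all genes, and 27 members (65.9%) were above 0 against 46.8% of genes. Genes in the background were not matched on level, and most members were well expressed. In cells at or below the median of the dissociation list the median over the members was 0.19, and in cells of at least 2500 genes it was 0.20. At an unadjusted edgeR p under 0.05 were 9 members (8 of them higher), against 11.2% of all genes. Aldoc is among the 27 above 0, but it had no read in other cells and none in promyelinating cells of plate 1. It is therefore not among the 18.

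By role, the 18 were 1 of 3 uptake genes, 1 of 7 hexose and triose genes, 4 of 6 genes of the energy-yielding steps, 2 of 4 lactate genes, 2 of 5 genes of pyruvate entry and oxidation, 1 of the 3 Pdk genes tested and 7 of 13 citric acid cycle genes. Mdh2 (chromosome 5, 135778480 to 135790398) had the lowest p after Ldhb, and was at 1564 and 1404 CPM in promyelinating, 1005 and 868 CPM in other and 971 and 807 CPM in cycling cells. Its log2 fold change over other cells was 0.74 (SE 0.19), with an edgeR adjusted p of 0.121, and of 0.0184 with the plate as a block (0.00290 to 0.756 over the alternatives). With the block, 2 members were thus called in this comparison, Ldhb and Mdh2, where 2.22% of all genes were. DESeq2 called 4 (Ldhb, Mdh2, Eno1 and Sucla2, all higher), where it called 7.72% of all genes, and limma called Ldhb alone, where it called 2.85%. Mdh2, Eno1, Ldha, Sucla2, Idh2, Sdha and Pdk2 are described singly here because an alternative fit called them in a comparison or because they partner Ldhb, a choice made after their values were seen.

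Eno1, the enolase of most tissues, was at 725 and 777 CPM in promyelinating, 443 and 594 CPM in other and 427 and 496 CPM in cycling cells. Sucla2, a subunit of the ATP-forming succinyl-CoA ligase, was at 241 and 272 CPM, 88 and 172 CPM, and 119 and 133 CPM in the same order. For both genes the promyelinating values lay above all others, with log2 fold changes over other cells of 0.62 (SE 0.20 and edgeR adjusted p = 0.246) and 1.06 (SE 0.33, adjusted p = 0.222). A near-identical copy of Eno1 in the table held 6954 reads against 294362 on Eno1, so reads may be split between them. Several members, Sucla2 and Aldoa among them, overlap other genes, and whether strand was used in counting is not given in the sources used here.

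A group of 6 members lay below the other cells on both plates: Pfkm, Tpi1 (triose phosphate isomerase), Eno2, Pkm (pyruvate kinase of most tissues), Mpc1 and Idh2 (mitochondrial NADP-dependent isocitrate dehydrogenase). Pfkm had the largest difference, at 7.56 and 2.52 CPM in promyelinating against 23.8 and 23.9 CPM in other cells (log2 fold change -2.16, SE 0.89 and edgeR adjusted p = 0.412). It was detected in 65 of the 621 cells, and 3 cells gave 75.9% and 81.7% of its promyelinating reads.

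**Figure D4:**
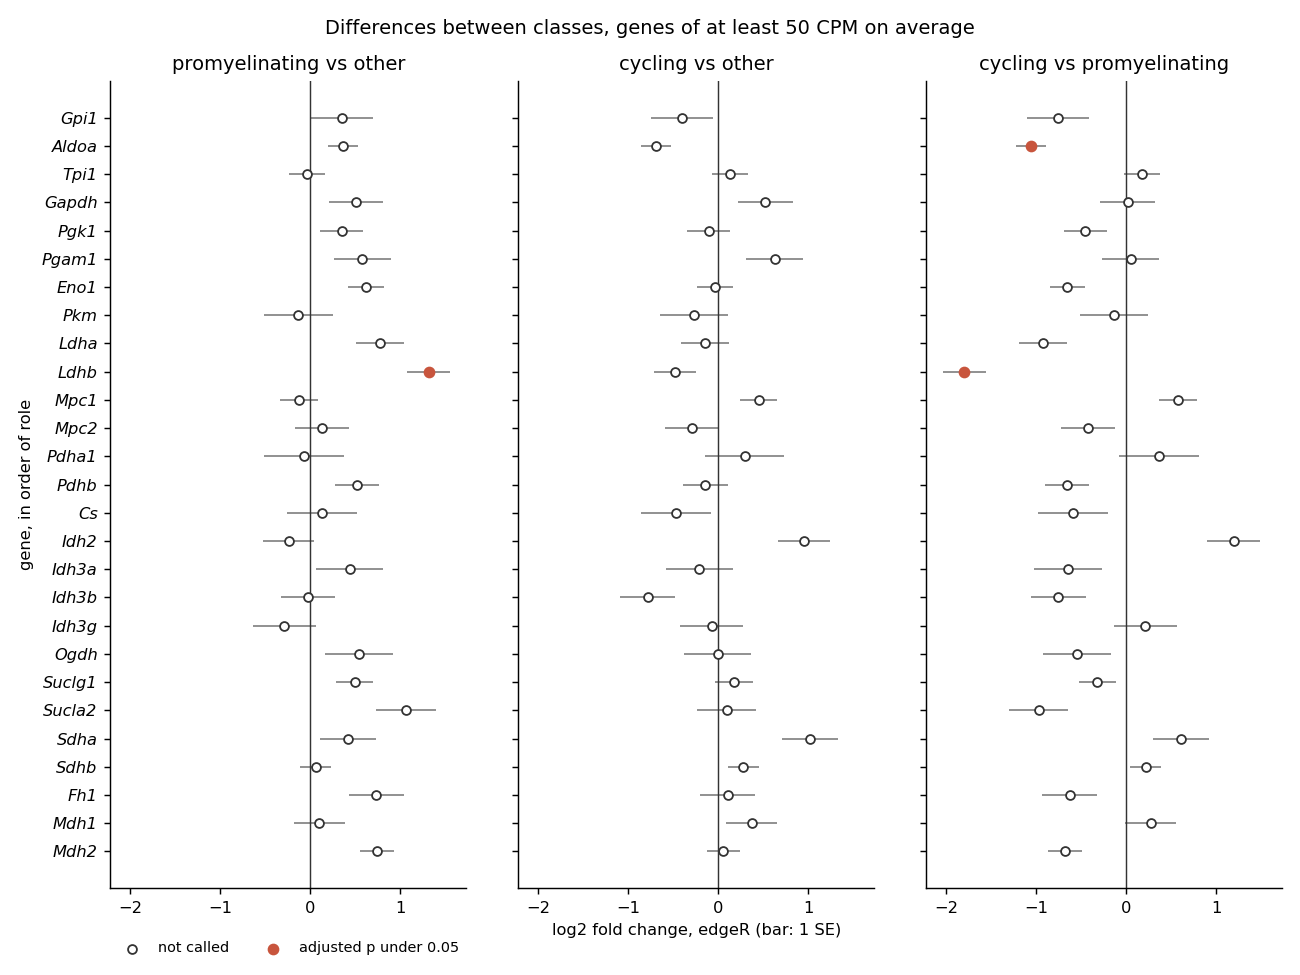
Log2 fold changes (edgeR, bars 1 SE) in the 3 comparisons for the 27 members with a mean of at least 50 CPM over the 6 sums; filled points have an adjusted p under 0.05. Ldhb is called in the left and right panels (1.31 and -1.80) and Aldoa in the right panel (-1.06).

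Cycling and other cells were compared to ask whether the route differs in dividing cells. No member was called by edgeR (41 tested), where 1.01% of all genes were called, while 5 had an unadjusted p under 0.05, against 10.1% of all genes. DESeq2 called 4 members (Aldoa and Pdk2 lower, Idh2 and Sdha higher), where it called 6.07% of all genes. In limma 1 was called (Aldoa), where 1.75% of all genes were, and the fit with plate as a block called 0, where it called 1.17%. The median log2 fold change was -0.11 over the members and -0.07 over all genes. On both plates 6 members (14.6%) lay above other cells and 13 (31.7%) below, near the 14.9% and 28.7% of all genes. Without scaling beyond read totals the median of all genes moved to -0.20 and that of the members to -0.23.

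Idh2 (chromosome 7, 80094846 to 80115392) was at 168 and 165 CPM in cycling cells against 83.5 and 106 CPM in other and 76.3 and 75.3 CPM in promyelinating cells. The cycling values lay above the other 4 sums. Its log2 fold change over other cells was 0.95 (SE 0.29 and edgeR adjusted p = 0.279, 0.0155 to 0.611 over the alternatives). Of cycling cells 39.6% and 42.1% had a read of Idh2, against 23.4% and 28.1% of other cells and 28.8% and 25% of promyelinating cells. Sdha, the flavoprotein subunit of succinate dehydrogenase, was at 268 and 166 CPM in cycling and 127 and 110 CPM in other cells (log2 fold change 1.02, SE 0.31, adjusted p = 0.281). Sdhb, its partner, was at 646 and 647 CPM in cycling and 588 and 579 CPM in other cells.

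On the glycolytic side, Aldoa was at 463 and 555 CPM in cycling against 856 and 942 CPM in other cells (log2 fold change -0.69, SE 0.17 and edgeR adjusted p = 0.151, 0.00450 to 0.461 over the alternatives). Pdk2, a kinase that switches off pyruvate dehydrogenase, was at 1.90 and 2.77 CPM in cycling against 10.3 and 29.4 CPM in other cells (log2 fold change -2.95, SE 1.00, adjusted p = 0.346). All its cycling reads came from 3 cells on plate 1 and 2 on plate 2. Hk2, Slc2a1, Pkm and Ldha, genes often followed in proliferating cells, gave no call: Slc2a1 was at 9.16 and 9.41 CPM in cycling and 11.9 and 12.3 CPM in other cells, Hk2 at 5.56 and 1.89 against 3.73 and 6.44 CPM, and Pkm at 56.0 and 113 against 99.0 and 122 CPM. Only 5 and 6 cycling cells had a read of Hk2, and 9 and 8 one of Slc2a1. With SEs of 1.76 and 0.80 on the log2 scale, the test could hardly call a difference in these 2 genes.

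Cycling and promyelinating cells, the classes set by transcripts of division and of myelin, were compared last, and no order in time between them was measured. Between them 2 members were called, Ldhb and Aldoa, both lower in cycling cells. Of all genes 5.95% were called and 2.12% were called lower. Ldhb had a log2 fold change of -1.80 (SE 0.24 and edgeR adjusted p = 0.00375) and was called under all 13 alternatives (adjusted p 1.06e-10 to 0.0200). Aldoa (ENSMUSG00000030695, chromosome 7, 126795234 to 126800751, minus strand) stood at 463 and 555 CPM in cycling, 1119 and 1073 CPM in promyelinating and 856 and 942 CPM in other cells. The 3 classes did not overlap, with cycling cells lowest on each plate. Its log2 fold change was -1.06 (SE 0.17 and edgeR adjusted p = 0.00859). Among cells at or below the median of the dissociation list its adjusted p was 0.0865, and it was called under the other 12 alternatives.

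Aldoa was found in 75.5% and 80.7% of cycling cells, 93.2% and 96.7% of promyelinating cells and 85.1% and 88.0% of other cells. Fam57b overlaps it on the opposite strand, and reads of such a pair cannot be told apart unless strand was used. Between promyelinating and other cells the log2 fold change of Aldoa was 0.37 (SE 0.17 and edgeR adjusted p = 0.474), so that a difference of this size was not separated from the spread.

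With the plate as a block 4 members were called, all lower in cycling than in promyelinating cells, where 6.66% of all genes were called and 2.51% were called lower: Ldhb, Aldoa, Mdh2 (log2 fold change -0.68, SE 0.19 and edgeR adjusted p 0.0793 without and 0.0130 with the block) and Eno1 (-0.65, SE 0.20, 0.108 without and 0.0400 with the block). Ldha was close in size to Aldoa, with a log2 fold change of -0.92 (SE 0.27, adjusted p = 0.0935), and Sucla2 had -0.97 (SE 0.33, adjusted p = 0.146). Idh2 went the other way, higher in cycling cells by 1.19 on the log2 scale (SE 0.29 and edgeR adjusted p = 0.0524, 0.000626 to 0.372 over the alternatives). At an unadjusted edgeR p under 0.05 were 11 members (2 of them higher in cycling cells), against 20.1% of all genes. DESeq2 called 8 members and limma 6, where they called 17.5% and 10.1% of all genes. The median over the members was -0.46, beside 0.02 over all genes. Below promyelinating cells on both plates were 20 members (48.8%, against 24.6% of all genes), 8 of them among the 20 glycolysis and lactate genes and 12 among the 21 pyruvate and citric acid cycle genes tested. Above them were 8 members (19.5%, against 23.1%): Pfkm, Tpi1, Mpc1, Pdha1, Idh2, Sdha, Sdhb and Mdh1. The 3 comparisons share their sums, so their results are not independent.

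Summed over a step, the levels are given without a test. The 6 energy-yielding genes summed to 1527 and 1560 CPM in promyelinating cells, 1152 and 1144 CPM in cycling cells and 1094 and 1248 CPM in other cells. The 7 hexose and triose genes summed to 1611 and 1520, 895 and 989, and 1349 and 1423 CPM in the same order, most of it Aldoa. The 5 genes of pyruvate entry and oxidation ranged only from 907 to 1122 CPM over the 6 sums, and the 13 citric acid cycle genes from 3305 to 4628 CPM. Within the last of these, Sdhb kept between 560 and 647 CPM.

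Per cell, a median of 22 and 20.5 of the 42 genes had a read in promyelinating cells, 18 in cycling cells on either plate and 16 in other cells on either plate. With every cell thinned to 100000 reads (27 shallower cells dropped) these medians became 21 and 19, 17 and 17, and 15 and 15.5. The order is that of the number of detected genes after thinning (3304 and 3132, 3140 and 3092, and 2446 and 2514), and the part of the latter in the former was not tested.

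Of 53 further genes of these pathways, 42 could be tested. None was called between cycling and other cells by edgeR (6 at an unadjusted p under 0.05, 4 called by DESeq2 and 0 by limma), 1 was called lower in promyelinating than in other cells, and 2 were called higher and 1 lower in cycling than in promyelinating cells, where 1.01%, 1.79% and 5.95% of all genes were called. In the last 2 comparisons DESeq2 called 2 and 9 of them and limma 0 and 3. Of all genes, DESeq2 called 6.07%, 7.72% and 17.5% in the 3 comparisons in that order, and limma 1.75%, 2.85% and 10.1%. Between cycling and other cells 10.1% of all genes had an unadjusted edgeR p under 0.05. Pck2, the mitochondrial phosphoenolpyruvate carboxykinase, had 0 reads in all 119 promyelinating cells, 43.5 and 30.5 CPM in cycling and 5.12 and 6.54 CPM in other cells. Its level was called higher in cycling cells (edgeR adjusted p = 0.00203) and in other cells (adjusted p = 0.00996, 1.45e-08 to 0.0946 over the alternatives). No fold change is given for Pck2, since it would rest on 0 reads and reads without molecular identifiers are copies of amplified cDNA. The 0 reads therefore set no firm upper limit on its level in promyelinating cells. Suclg2, the subunit of the GTP-forming succinyl-CoA ligase, was at 15 and 36 CPM in cycling and 1.42 and 1.71 CPM in promyelinating cells (log2 fold change 4.06, SE 0.85 and edgeR adjusted p = 0.0280, 2.27e-06 to 0.144 over the alternatives). Got2, the mitochondrial aspartate aminotransferase of the malate-aspartate shuttle, was at 14.7 and 13.1 CPM against 86.2 and 63.0 CPM (log2 fold change -2.37, SE 0.48 and edgeR adjusted p = 0.0247, 5.03e-06 to 0.0732 over the alternatives). Reads of Suclg2 and Got2 are amplified copies too, and how many cells they came from is not given here. The calls of both were lost in cells of at least 2500 genes (adjusted p 0.0503 and 0.0665) and in cells at or below the median of the dissociation list (0.144 and 0.0732), and that of Pck2 against other cells was lost in the latter cells (0.0946) and with limma (0.0542).

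All 7 genes of the pentose phosphate path were tested and none was called by edgeR in any comparison, with 1, 0 and 3 at an unadjusted p under 0.05 in promyelinating against other, cycling against other and cycling against promyelinating cells. DESeq2 called 1, 0 and 2 of them in these comparisons, limma 0, 0 and 1, and edgeR with the plate as a block 0, 0 and 1. Of all genes these tools called 7.72%, 6.07% and 17.5% (DESeq2), 2.85%, 1.75% and 10.1% (limma) and 2.22%, 1.17% and 6.66% (with the block). An unadjusted edgeR p under 0.05 was reached by 11.2%, 10.1% and 20.1% of all genes. Of 8 genes of the hypoxia response (Hif1a, Epas1, Arnt, Vhl, Egln1, Egln2, Egln3 and Hif1an) 6 could be tested and none was called, with 1 at an unadjusted p under 0.05 in each comparison. DESeq2 called 1, 1 and 0 of these in the same order and limma called 0 in each.

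Several members have near-identical copies in the genome. With at least 95% identity over at least 200 bases, 12 of the 42 had a copy, Gapdh most of all with 93, of which 89 are pseudogenes. Gapdh was at 213 to 385 CPM, and its levels are uncertain if reads that fit several places were dropped. Ldha had 5 such copies, Eno1 and Pgk1 4 each, and Ldhb and Aldoa 1 each, none of those of Ldha, Ldhb or Aldoa being in the table. How reads with several matches were treated is not given in the sources used here.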

How the data were processed

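The deposited table holds raw counts, whole reads per gene and well, made by the authors. Their methods name STAR and featureCounts with a human build, while the identifiers are mouse, and the submitters' processing notes name bcl2fastq, STAR 2.6.1c, featureCounts and GRCm38.p5. Strand use in counting is not given in the sources used here. Symbols, positions and exon lengths came from GENCODE (GRCm38) and promoters from RefSeq, and 25664 of 25700 identifiers had a symbol.

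Cells with at least 1500 genes were classed by the 50 CPM thresholds and their counts summed per class and plate. Each well took 1 sorted cell, no doublet caller was run, 1 cell passed both thresholds and was called cycling, and 0 pairs of wells had identical counts. Plates held 276327564 and 274141117 reads in 370 and 373 wells. The sums were tested with edgeR 4.0.16 (quasi-likelihood, TMM scaling, filterByExpr, robust), with Benjamini-Hochberg adjustment over all 13292 genes tested and calls at an adjusted p under 0.05. Pdk4 failed the filter on low counts. Plates are the replicates (n = 2). Same-numbered sums come from the same mice, so the plate pairs the classes, and deviations of the same plate correlated at r = 0.13 to 0.23 across 3705 genes. The fit with a plate block is given where it changed a call. Alternatives were DESeq2 1.42.0, limma 3.58.1 on log2 of the mean CPM plus 1, other scalings, filters and thresholds, thinning to 100000 reads, and leaving out each plate. The use of cells low in dissociation genes was added after seeing the data. TPM used the union of exons. Copies were searched with blastn 2.17.0. R 4.3.3 and Python 3.11.15 were used, and the fits were tested on simulated data. Members called in a comparison were described with full values, the rest by counts and ranges. The members and lists were chosen with earlier results of these data known. Binomial intervals cover counting error only.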

Additional observations from a re-analysis of the deposited data

Results flagged for a closer look

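The 122 wells with under 1500 genes enter no comparison, yet they held reads of the 42 genes (80008 on plate 1 and 35708 on plate 2). Summed over the 83 such wells of plate 1 the members took 4753 CPM, against 10118 CPM in the kept cells of that plate. Over the 39 such wells of plate 2 they took 8665 CPM, against 9324 CPM in the kept cells.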

How the results depend on the processing

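Calls in single genes rest on 2 plates per class, and leaving out a plate leaves values without a test. No called result changed direction under the alternatives run, and the uncalled median of cycling against other cells changed sign with thinned cells. Members called in promyelinating against other, cycling against other and cycling against promyelinating cells numbered 1, 0 and 2; with DESeq2 they were 4, 4 and 8 (1026, 807 and 2322 of all genes), without a filter on low counts 2, 0 and 6 (521, 317 and 1290 of all genes), with limma 1, 1 and 6 (379, 232 and 1343), with thinned cells 1, 0 and 6 (377, 220 and 1085), with the plate as a block 2, 0 and 4, and in cells at or below the median of the dissociation list 0, 0 and 1 (56, 68 and 313). The block added Mdh2 in the first and Mdh2 and Eno1 in the last, and changed no other call among the members. The cause of the other shifts was not tested.

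The median log2 fold change of the members over other cells in promyelinating cells was 0.20 in cells of at least 2500 genes and 0.19 in cells low in the dissociation list. In cycling against other cells it was -0.23 without scaling beyond totals and 0.012 with thinned cells. In cycling against promyelinating cells it was -0.56 with limma. Leaving out a plate gave 0.26 to 0.45, -0.16 to -0.05 and -0.50 to -0.32 for the 3 comparisons in that order. These are medians of CPM ratios on the remaining plate, without the scaling of the fit. With both plates, the fit without scaling beyond totals gave 0.28, -0.23 and -0.51.

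Taking the longest transcript as length moved the Ldhb share to 77.8% in cycling, 86.4% in promyelinating and 81.0% in other cells, Eno1 in other cells to 98.7%, Mpc1 in other cells to 89.5% and Pfkm to 72.4% in cycling and 69.1% in other cells. The mean of per-cell values gave 80.8% (cycling) and 88.2% (promyelinating) for Ldhb and 66.2% for Pfkm in other cells. For Pfkm in promyelinating cells, 49.1% and 19.3% on the plates, the longest transcript gave 40.7% and 13.9% and the mean of per-cell values 48.2% and 39.8%.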
